A study of Rattus norvegicus with 74 samples.

Results

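The ATP-driven export pumps of the rat liver were followed across 4 agents and 15 dose groups. The genes named for study were Abcc2, Abcc3, Abcc4, Abcc6, Abcb1a, Abcb1b, Abcb4 and Abcg2, and every probe set of the expression array that is annotated to 1 of them alone was taken. This gave 8 probe sets for 7 of the 8 genes, out of 20826 single-gene probe sets for 14217 genes. Abcb1a has 2 probe sets (1370465_at and 1370464_at), and each of the other 6 genes has 1. Abcb1b has no probe set of its own and is read only through 1370583_s_at, which is annotated to Abcb1a and Abcb1b together and entered no count.

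RNA came from the left liver lobe of Wistar Han rat pups (Crl:WI (Han)) at postnatal day 22. BDE-47, labelled PBDE-47, is a single brominated diphenyl ether, and DE-71 is a commercial brominated diphenyl ether mixture that contains it. Both were given daily by oral gavage at 50, 15, 0.1 and 0 mg/kg. Dams were dosed over gestation days 6 to 21, and their pups over postnatal days 12 to 21. Phenobarbital, a barbiturate that activates the nuclear receptor CAR, was labelled 0, 5 or 45 mg/kg. PCB126, a dioxin-like chlorinated biphenyl that activates the aryl hydrocarbon receptor (AhR), was labelled 0, 10, 50 or 250 mg/kg. For those 2 agents the labels name oral gavage and no schedule of their own, and the PCB126 dose unit could not be checked. Each agent has its own 0 mg/kg group, and no group carries a mutation or transgene. There were 5 arrays a group, and 4 at DE-71 50 mg/kg. Nothing in the labels says whether pups of a group came from separate litters, so the tests measure the spread between these samples. The labels give no sex. Values are log2 expression, on which a difference of 1 is a fold change of 2. Levels are compared within a probe set and within an agent only.

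When all 656 pairs of arrays that share an agent were compared over the 300 most variable genes, 4 pairs were almost identical, with root mean square differences of 0.105 to 0.202 against 0.531 for the next closest pair. The pair within BDE-47 0 mg/kg (replicates 3 and 4) and the pair within DE-71 15 mg/kg (replicates 1 and 2) were averaged and counted as 1 sample each, which left 72 samples from 74 arrays. The other pairs join different dose groups, namely replicate 3 of BDE-47 15 and 50 mg/kg, and DE-71 15 mg/kg replicate 5 with DE-71 50 mg/kg replicate 4. Which dose such an array stands for cannot be told apart, so the calls of members in these 4 groups are given with and without these arrays. Values of companion genes and of the shared Abcb1a and Abcb1b probe set are given with them only. A further array stood apart in sex-linked genes. In PCB126 50 mg/kg replicate 2, Xist, which is expressed from an inactive X chromosome, read 9.89 against 2.61 to 3.45 in all other samples, and the Y-linked gene Eif2s3y read 2.45 against 8.22 to 9.47. The Y-linked gene Uty was not low there (9.07, against 7.01 to 8.39 in the others). With or without that sample, 0 of 8 member probe sets were called at PCB126 50 mg/kg, and the member differences without it lay between -0.44 and 0.00. The tissue label was checked against hepatocyte markers. Alb (albumin) averaged 14.8 and Ttr (transthyretin) 14.1 over all samples. Bulk liver RNA was measured, in which fewer cells of a type and less RNA per cell cannot be told apart.

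Hepatocytes take up drugs and endogenous compounds from the blood, conjugate many of them to glucuronic acid, sulfate or glutathione, and export the products at either of their faces. At the canalicular face, toward bile, Abcc2 (MRP2) exports glucuronide and glutathione conjugates, Abcb1a and Abcb1b (the rodent P-glycoproteins) export bulky lipophilic drugs, Abcg2 (BCRP) exports sulfate conjugates, and Abcb4 flips phosphatidylcholine into bile. At the basolateral face, toward the blood, Abcc3 (MRP3) exports glucuronides, Abcc4 (MRP4) exports cyclic nucleotides and sulfated compounds, and Abcc6 is linked to ATP release. Several of these genes are known targets of CAR, of the related receptor PXR, or of NRF2, the regulator of the antioxidant response. In the reference, Abcb4, Abcb1b and Abcb1a lie next to each other on chromosome 4, which also holds Abcg2. Abcc2 and Abcc6 lie on chromosome 1, Abcc3 on chromosome 10 and Abcc4 on chromosome 15.

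Promoter windows of 300 bases, from 250 before to 50 after the start site (RefSeq, build GRCr8), were at hand for 7 of the 8 genes, and Abcc3 is named without one. The pair below is shown because both genes rose with the same agents while their windows differ in short receptor half-sites. Matches are in capitals. The Abcc2 window is chr1:252613625-252613924 on the plus strand and that of Abcb1a is chr4:26397599-26397898 on the minus strand.
Abcc2: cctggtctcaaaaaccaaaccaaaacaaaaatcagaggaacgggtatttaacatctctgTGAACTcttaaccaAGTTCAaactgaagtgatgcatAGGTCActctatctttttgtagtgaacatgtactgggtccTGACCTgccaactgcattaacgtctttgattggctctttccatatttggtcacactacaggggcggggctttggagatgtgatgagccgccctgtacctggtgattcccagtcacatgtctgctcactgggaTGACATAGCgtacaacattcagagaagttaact
Abcb1a: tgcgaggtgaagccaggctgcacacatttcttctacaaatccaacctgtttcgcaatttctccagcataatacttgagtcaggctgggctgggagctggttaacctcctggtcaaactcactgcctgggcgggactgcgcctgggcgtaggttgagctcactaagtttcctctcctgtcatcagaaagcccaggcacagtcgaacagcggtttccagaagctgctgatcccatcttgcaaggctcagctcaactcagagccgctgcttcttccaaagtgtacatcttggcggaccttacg

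The letters searched on both strands were AGGTCA and AGTTCA (half-sites of nuclear receptors such as CAR and PXR), TGACNNNGC (the core of the antioxidant response element) and GCGTG (the core bound by AhR). The Abcc2 window holds 2 AGGTCA, 2 AGTTCA and 1 TGACNNNGC matches, and the Abcb1a window holds 0 matches to these letters. Over all 33469 promoter windows of this length, 16.2% hold AGGTCA, 14.5% AGTTCA, 12.1% TGACNNNGC and 29.7% GCGTG. Abcb1b and Abcc6 hold 0 matches, Abcb4 holds 1 AGTTCA and 4 GCGTG, Abcc4 holds 2 GCGTG and Abcg2 holds 1 GCGTG. No match overlaps another in these windows. These are matches of letters, and binding was not measured.

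The members that rose with phenobarbital, BDE-47 and DE-71 at their upper doses were the canalicular pumps Abcc2 and Abcb1a and the basolateral pump Abcc3. With DE-71 only the dimmer Abcb1a probe set, 1370464_at, was called. Its calls at both upper doses were lost without DE-71 0 mg/kg replicate 4, and also with only the DE-71 arrays in the fit. Of the 8 probe sets, 4 were called at phenobarbital 45 mg/kg, where 1.90% of all probe sets were, 4 at BDE-47 15 mg/kg (0.557%), 4 at BDE-47 50 mg/kg (2.77%), 3 at DE-71 15 mg/kg (0.807%) and 4 at DE-71 50 mg/kg (7.63%). At 10, 50 and 250 mg/kg of PCB126 0 of 8 were called, where the shares of all probe sets were 0%, 0% and 0.0336%, so these counts are at the background. The canalicular phospholipid flippase Abcb4 and the sulfate exporter Abcg2 were called in 0 of the 18 comparisons. A probe set was called at an adjusted p below 0.05 in limma's moderated test, adjusted by Benjamini and Hochberg over all 20826 probe sets of the comparison, and "rose" or "fell" is used for called probe sets only.

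**Figure D1:**
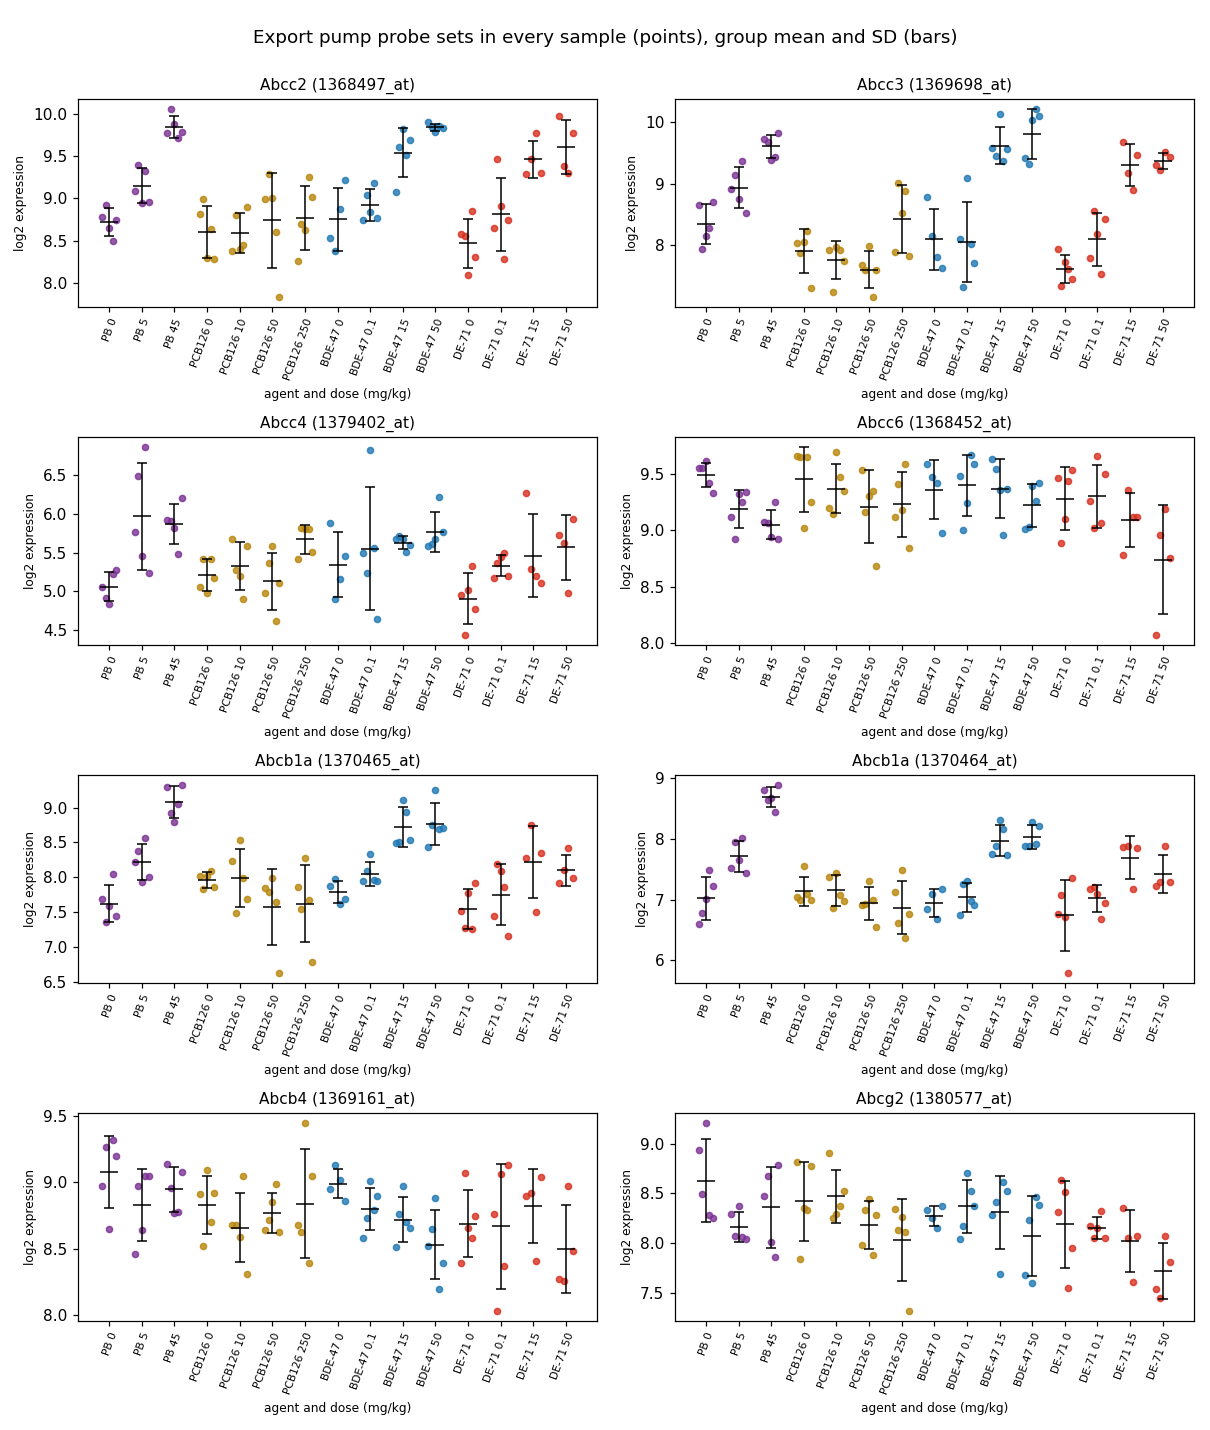
Log2 expression (vertical axes) of the 8 single-gene probe sets in all 72 samples, by agent and dose in mg/kg (horizontal axes); points are samples, and bars give the group mean and SD. The Abcc2, Abcc3 and Abcb1a points lie higher at phenobarbital 45 mg/kg and at 15 and 50 mg/kg of BDE-47 than in the 0 mg/kg groups, apart from 1 Abcc2 sample at BDE-47 15 mg/kg (9.07) that lies below the highest control sample (9.22).

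Abcc3, the basolateral glucuronide exporter, had the largest differences of the 8 probe sets with both brominated agents. In the BDE-47 control samples its values were 8.78, 8.16, 7.82 and 7.63. At BDE-47 15 mg/kg they were 9.59, 9.46, 10.14, 9.37 and 9.56, and at 50 mg/kg they were 9.42, 9.32, 10.03, 10.21 and 10.10. Every sample of both dose groups lay above every control sample. The log2 difference was 1.53 (SE 0.25, adjusted p = 8.4e-05 in limma), a 2.88-fold rise, at 15 mg/kg. At 50 mg/kg it was 1.72 (SE 0.25, adjusted p = 2.7e-06), a 3.29-fold rise.

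With DE-71, Abcc3 went from 7.94, 7.35, 7.73, 7.62 and 7.45 in controls to 9.68, 9.18, 8.90 and 9.47 at 15 mg/kg and to 9.30, 9.23, 9.52 and 9.44 at 50 mg/kg. These groups did not overlap with the controls either. The differences were 1.69 (SE 0.25, adjusted p = 7.9e-06 in limma) and 1.75 (SE 0.25, adjusted p = 1.1e-06), or 3.23-fold and 3.37-fold. Without the arrays near-identical across doses, Abcc3 kept its calls at 15 and 50 mg/kg of BDE-47 (1.40, adjusted p = 0.0019, and 1.67, adjusted p = 2.1e-05) and of DE-71 (1.64, adjusted p = 1.5e-04, and 1.70, adjusted p = 1.1e-05). The lowest dose, 0.1 mg/kg, gave 0.48 (SE 0.24, adjusted p = 0.80) for DE-71 and -0.04 (SE 0.25, adjusted p = 1) for BDE-47, and neither was called.

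With phenobarbital, Abcc3 was 8.66, 7.94, 8.16, 8.29 and 8.71 in controls, 8.91, 9.15, 8.75, 9.38 and 8.53 at 5 mg/kg, and 9.73, 9.68, 9.39, 9.44 and 9.83 at 45 mg/kg. The 5 mg/kg values overlapped the controls and the 45 mg/kg values did not. At 45 mg/kg Abcc3 rose by 1.26 (SE 0.24, adjusted p = 3.7e-04 in limma), or 2.40-fold. At PCB126 250 mg/kg its samples were spread from 7.83 to 9.02 around a median of 8.52, against 7.31 to 8.24 in controls, and the difference of 0.52 (95% interval 0.05 to 0.99, adjusted p = 0.83) was not called.

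Abcc4, the basolateral exporter of cyclic nucleotides, gave a dim signal, with a mean of 5.46 over all samples, and was called in 0 of the 18 comparisons. Its phenobarbital controls were 5.06, 4.91, 4.84, 5.22 and 5.28, and the 45 mg/kg samples, at 5.92, 5.91, 5.82, 5.48 and 6.21, all lay above them. The difference was 0.81 (SE 0.24, adjusted p = 0.069 in limma). It passed the threshold only without phenobarbital 45 mg/kg replicate 4 (0.90, adjusted p = 0.050 after rounding). The 5 mg/kg samples ranged more widely (5.77, 6.49, 5.46, 6.87 and 5.24), and 2 of them were higher than any 45 mg/kg sample. Their difference of 0.90 (SE 0.24, adjusted p = 0.21) was not called.

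At DE-71 50 mg/kg, Abcc4 was 5.73, 5.62, 4.97 and 5.94 against 4.95, 4.43, 5.01, 5.33 and 4.77 in controls, and only the sample at 4.97 overlapped them. That sample is replicate 4, the array almost identical to one of the 15 mg/kg group. The difference was 0.67 (SE 0.26, adjusted p = 0.10 in limma) with all samples and 0.87 (SE 0.28, adjusted p = 0.035) without the arrays near-identical across doses, so the call depends on them.

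Abcc6, the third basolateral pump, was the only member with a call for a lower value. Its DE-71 controls were 9.46, 8.89, 9.10, 9.44 and 9.53, and the 50 mg/kg samples were 8.07, 8.96, 9.19 and 8.75. One sample of the dosed group, replicate 2 at 8.07, lay far below the rest, and 2 of the 4 lay within the control range. The fall was -0.54 (SE 0.17, adjusted p = 0.040 in limma), or 0.687-fold. The call was lost without any 1 of 5 samples, which are DE-71 0 mg/kg replicates 1, 4 and 5 and DE-71 50 mg/kg replicates 2 and 5. Without replicate 2 of the 50 mg/kg group the difference was -0.32 (adjusted p = 0.48), and without the other 4 it was between -0.54 and -0.48 (adjusted p from 0.069 to 0.11). Without the arrays near-identical across doses it was -0.69 (adjusted p = 0.011). With only the DE-71 arrays in the fit the call was lost (adjusted p = 0.20). With phenobarbital 45 mg/kg, the 5 Abcc6 samples (9.07, 9.06, 8.94, 9.25 and 8.92) all lay below the 5 controls (9.55, 9.55, 9.61, 9.42 and 9.33), and the difference of -0.44 (SE 0.16, adjusted p = 0.19) was not called. With only the phenobarbital arrays in the fit it was called (SE 0.09, adjusted p = 0.012).

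Abcc2, the canalicular conjugate exporter, rose with 3 of the 4 agents. Its phenobarbital controls were 8.78, 8.92, 8.65, 8.49 and 8.74, the 5 mg/kg samples 9.09, 9.40, 8.95, 9.32 and 8.96, and the 45 mg/kg samples 9.77, 10.06, 9.88, 9.72 and 9.78. The 3 dose groups stood in order with no overlap. At 45 mg/kg the rise was 1.13 (SE 0.19, adjusted p = 4.7e-05 in limma), or 2.19-fold, while the 5 mg/kg difference of 0.43 (SE 0.19, adjusted p = 0.77) was not called.

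In the BDE-47 series Abcc2 was 8.53, 8.38, 8.87 and 9.22 in controls, 9.07, 9.61, 9.82, 9.51 and 9.69 at 15 mg/kg, and 9.90, 9.84, 9.79, 9.86 and 9.83 at 50 mg/kg. The 50 mg/kg samples lay within a narrow band, with an SD of 0.04 (n = 5), above all controls. The rise at 50 mg/kg was 1.09 (SE 0.20, adjusted p = 1.8e-04 in limma), or 2.13-fold. At 15 mg/kg it was 0.79 (SE 0.20, adjusted p = 0.039), and this call was lost without any 1 of 7 of the 9 samples (0.67 to 0.83, adjusted p from 0.065 to 0.20). It held only without BDE-47 0 mg/kg replicate 5 or 15 mg/kg replicate 1. Without the arrays near-identical across doses it was also lost (0.72, adjusted p = 0.17).

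With DE-71, Abcc2 controls were 8.58, 8.55, 8.09, 8.85 and 8.30. The 15 mg/kg samples were 9.29, 9.47, 9.77 and 9.30, the 50 mg/kg samples 9.98, 9.38, 9.30 and 9.77, and both groups lay wholly above the controls. The rises were 0.99 (SE 0.20, adjusted p = 0.0022 in limma) and 1.13 (SE 0.20, adjusted p = 6.7e-05), or 1.98-fold and 2.20-fold. With only the DE-71 arrays in the fit the 15 mg/kg call was lost (adjusted p = 0.066). Without the arrays near-identical across doses Abcc2 remained called here (1.04, adjusted p = 0.0049, and 1.24, adjusted p = 5.8e-05) and at BDE-47 50 mg/kg (1.11, adjusted p = 5.2e-04). With PCB126 the 3 differences lay between -0.02 and 0.17.

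Abcb1a, one of the P-glycoproteins, had its largest difference with phenobarbital. Probe set 1370465_at, the brighter of its 2, read 7.69, 7.36, 7.58, 8.04 and 7.44 in controls, 8.22, 8.37, 7.93, 8.56 and 8.01 at 5 mg/kg, and 9.30, 8.92, 8.80, 9.06 and 9.33 at 45 mg/kg. The 45 mg/kg samples lay above both other groups. The rise over controls was 1.46 (SE 0.21, adjusted p = 2.9e-06 in limma), or 2.75-fold. The second probe set, 1370464_at, rose by 1.67 (SE 0.19, adjusted p = 2.8e-09), or 3.18-fold, from controls of 6.60, 6.78, 7.01, 7.49 and 7.23 to 8.81, 8.64, 8.67, 8.44 and 8.89.

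With BDE-47, 1370465_at was 7.87, 7.97, 7.62 and 7.69 in controls, 8.49, 8.51, 9.11, 8.94 and 8.54 at 15 mg/kg, and 8.43, 8.75, 9.25, 8.70 and 8.71 at 50 mg/kg. Neither dose group overlapped the controls. The rises were 0.93 (SE 0.23, adjusted p = 0.028 in limma) and 0.98 (SE 0.23, adjusted p = 0.0053), and those of 1370464_at were 1.02 (SE 0.20, adjusted p = 0.0025) and 1.09 (SE 0.20, adjusted p = 2.6e-04). The 15 mg/kg call of 1370465_at was lost without BDE-47 0 mg/kg replicate 1, replicates 3 and 4, or replicate 5, and without 15 mg/kg replicate 3 or 4 (0.84 to 0.96, adjusted p from 0.063 to 0.14). Without the arrays near-identical across doses 1370465_at gave 0.84 (adjusted p = 0.14) and 1370464_at gave 0.93 (adjusted p = 0.020), while at 50 mg/kg both stayed called (0.86, adjusted p = 0.031, and 1.02, adjusted p = 0.0014).

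With DE-71 the 2 Abcb1a probe sets differed in their calls. For 1370464_at, controls were 6.76, 7.07, 6.71, 5.79 and 7.35, the 15 mg/kg samples 7.86, 7.89, 7.17 and 7.85, and the 50 mg/kg samples 7.22, 7.29, 7.89 and 7.29. Replicate 4 of the controls, at 5.79, stood far below the rest, and 1 sample at 15 mg/kg and 3 at 50 mg/kg lay within the control range. The rises were 0.96 (SE 0.20, adjusted p = 0.0042 in limma) and 0.68 (SE 0.20, adjusted p = 0.025). Without that control sample they were 0.72 (adjusted p = 0.066) and 0.45 (adjusted p = 0.16), and neither was called. With only the DE-71 arrays in the fit both calls were lost (adjusted p = 0.19 and 0.18). The 50 mg/kg call was also lost without DE-71 50 mg/kg replicate 2 (0.75, adjusted p = 0.056) or replicate 4 (0.53, adjusted p = 0.11), the latter being 1 of the arrays near-identical across doses. Without both of those arrays, 15 mg/kg gave 0.90 (adjusted p = 0.021) and 50 mg/kg gave 0.53 (adjusted p = 0.12). Probe set 1370465_at gave 0.67 (SE 0.23, adjusted p = 0.21) and 0.56 (SE 0.23, adjusted p = 0.13), and neither was called. Of the samples left out in turn, leaving out DE-71 15 mg/kg replicate 4 made the 15 mg/kg difference a call (0.92, adjusted p = 0.049). With PCB126 the 2 probe sets lay between -0.39 and 0.03, with no call.

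The shared probe set of Abcb1a and Abcb1b read 6.26, 6.76, 5.82, 6.82 and 6.61 in phenobarbital controls and 8.16, 8.05, 7.99, 8.08 and 8.25 at 45 mg/kg, with no overlap. The fold change was 3.14 (95% interval on the log2 scale 1.15 to 2.15). It was 2.08 (0.52 to 1.59) at BDE-47 15 mg/kg, 2.04 (0.49 to 1.57) at BDE-47 50 mg/kg, 2.37 (0.71 to 1.78) at DE-71 15 mg/kg and 1.90 (0.39 to 1.46) at DE-71 50 mg/kg. The share of Abcb1b in this signal cannot be told apart from that of Abcb1a.

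Abcb4 and Abcg2, the remaining canalicular members, were called in 0 comparisons. Abcb4, which lies beside Abcb1b and Abcb1a on chromosome 4, was 8.95, 9.13, 9.02 and 8.86 in BDE-47 controls and 8.52, 8.65, 8.88, 8.20 and 8.39 at 50 mg/kg, where only the sample at 8.88 overlapped the controls. The difference was -0.46 (95% interval -0.82 to -0.11, adjusted p = 0.18 in limma), and -0.55 (adjusted p = 0.096) without the arrays near-identical across doses. At phenobarbital 45 mg/kg, where both Abcb1a probe sets rose, Abcb4 differed by -0.14 (95% interval -0.47 to 0.20). Abcg2 went from 8.31, 8.64, 8.51, 7.55 and 7.95 in DE-71 controls to 7.54, 7.45, 8.07 and 7.81 at 50 mg/kg, with overlap. Its difference of -0.47 (95% interval -0.90 to -0.04, adjusted p = 0.19) was not called, and without the arrays near-identical across doses it was -0.59 (adjusted p = 0.087).

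**Figure D2:**
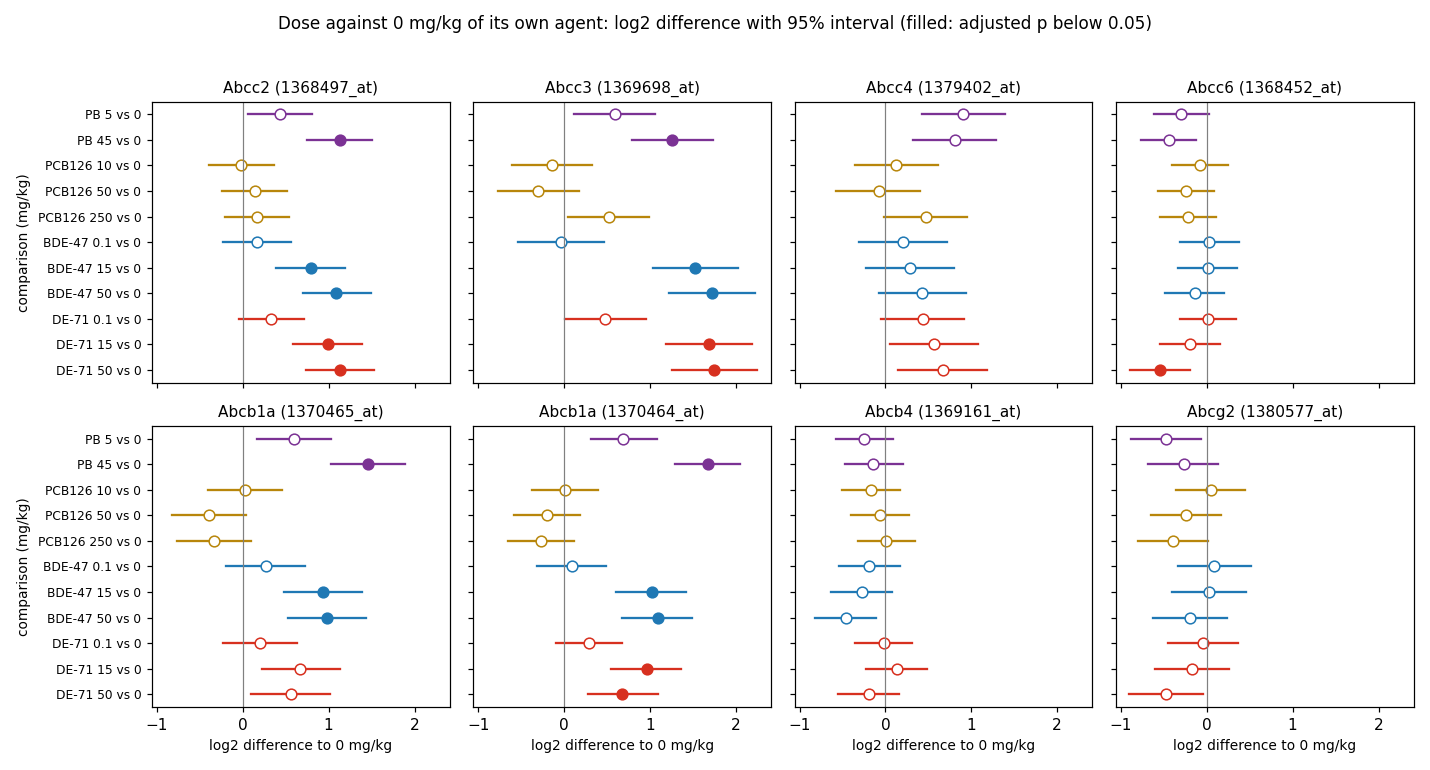
Log2 difference to the 0 mg/kg group of the same agent (horizontal axes) with its 95% interval for each of the 11 dose groups (vertical axes) and each of the 8 probe sets; filled points have an adjusted p below 0.05. Filled points stand on the right for Abcc2, Abcc3 and Abcb1a, from 0.68 to 1.75, and the only filled point on the left is Abcc6 at DE-71 50 mg/kg (-0.54).

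The members' counts were set beside the share of all 20826 probe sets called in the same comparison. At phenobarbital 45 mg/kg 4 of the 8 were called, all higher, where 1.90% of all probe sets were called, and the median difference was 0.97 for the members and -0.012 for all probe sets. At BDE-47 15 mg/kg 4 of 8 were called, all higher, against 0.557% (medians 0.54 and -0.019). At BDE-47 50 mg/kg 4 of 8 were called, all higher, against 2.77% (medians 0.71 and -0.014). At DE-71 15 mg/kg 3 of 8 were called, all higher, against 0.807% (medians 0.62 and -0.0083). At DE-71 50 mg/kg 4 of 8 were called, 3 higher and 1 lower, against 7.63% (medians 0.61 and 0.0079). Without DE-71 50 mg/kg replicate 2 the count over all probe sets in that last comparison went from 1589 to 403. That sample had the lowest mean correlation with its group of all arrays (0.9783), and companion and marker genes are given with it only. The 2 probe sets of Abcb1a count separately and share a gene.

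At the low doses 0 of 8 were called. The share of all probe sets called was 0.0768% at phenobarbital 5 mg/kg, 0% at BDE-47 0.1 mg/kg and 0% at DE-71 0.1 mg/kg. The phenobarbital 5 mg/kg group had an unadjusted p below 0.05 in limma for 6 of the 8 members, and for 1263 of all 20826 probe sets. Among these members Abcg2 was lower (-0.47) and the rest were higher, with Abcb1a counted by both of its probe sets. The median difference was 0.51 for the members against -0.0033 over all probe sets. The BDE-47 0.1 mg/kg group had 0 members with such a p and the DE-71 0.1 mg/kg group had 1, against 760 and 1297 of all probe sets. For PCB126, 0 of 8 members were called at 10, 50 and 250 mg/kg, where 0%, 0% and 0.0336% of all probe sets were called. An unadjusted p below 0.05 was reached by 0, 0 and 1 of the 8, and by 605, 1086 and 1227 of all probe sets. Cyp1a1, the index enzyme of AhR, rose by 4.24 (adjusted p = 4.4e-06 in limma) at PCB126 250 mg/kg, while Abcc2 differed there by 0.17 (95% interval -0.21 to 0.54) and the brighter Abcb1a probe set by -0.34 (-0.77 to 0.09). Abcc3 differed there by 0.52 (0.05 to 0.99) and Abcc4 by 0.47 (-0.02 to 0.95), neither of them called. All 5 dosed Abcc4 samples lay above the control mean.

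Steps between the upper doses of an agent do not use the controls. From phenobarbital 5 to 45 mg/kg both Abcb1a probe sets rose, by 0.86 (SE 0.21, adjusted p = 0.037 in limma) and 0.98 (SE 0.19, adjusted p = 0.0023), which makes 2 of 8 members called against 0.451% of all probe sets. The call of 1370465_at was lost without any 1 of 8 of the 10 samples (0.79 to 0.90, adjusted p from 0.059 to 0.17) and was kept without phenobarbital 5 mg/kg replicate 4 or 45 mg/kg replicate 3. Abcc2 and Abcc3 differed by 0.70 (adjusted p = 0.084) and 0.67 (adjusted p = 0.34) in this step, with no overlap between the groups and no call. The Abcc2 step was called with only the phenobarbital arrays in the fit (adjusted p = 0.0031) and with probe sets of a mean below 6 left out (adjusted p = 0.048).

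From BDE-47 15 to 50 mg/kg 0 of 8 members were called against 0% of all probe sets, and from DE-71 15 to 50 mg/kg 0 of 8 against 0.0912%. The Abcc3 step was 0.19 (95% interval -0.28 to 0.66) for BDE-47 and 0.06 (-0.46 to 0.59) for DE-71. Each of these steps holds 1 pair of near-identical arrays, and without them the Abcc3 steps were 0.27 (SE 0.26) and 0.07 (SE 0.31). The step from PCB126 50 to 250 mg/kg also had 0 of 8 members called against 0.0192%, and Abcc3 differed there by 0.82 (95% interval 0.35 to 1.29, adjusted p = 0.50).

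DE-71 and BDE-47 were compared at matched doses through the difference of their responses, each to its own controls. No member was called at 0.1, 15 or 50 mg/kg, where 0%, 0.0096% and 0.072% of all probe sets were. For Abcc3 the DE-71 response minus the BDE-47 response was 0.17 (95% interval -0.54 to 0.87) at 15 mg/kg and 0.04 (-0.67 to 0.74) at 50 mg/kg. For Abcc2 it was 0.20 (-0.37 to 0.76) and 0.04 (-0.52 to 0.60). The widest difference at 50 mg/kg among the members was that of the brighter Abcb1a probe set, -0.42 (-1.07 to 0.22). With the near-identical arrays left out the Abcc3 values were 0.24 (SE 0.38) and 0.04 (SE 0.38), the Abcc2 value at 15 mg/kg was 0.32 (SE 0.30), that Abcb1a value was -0.41 (SE 0.34), and no member was called. The intervals with all samples leave room for differences of 0.5 or more in either direction for Abcc3 and Abcc2 at 50 mg/kg. The index gene Cyp1a1 responded more to DE-71 by 4.83 (adjusted p = 0.0095 in limma) at 15 mg/kg and by 4.17 (adjusted p = 0.027) at 50 mg/kg.

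Other genes of the same transporter families were read for comparison. Of 5 measured other Abcc genes (Abcc1, Abcc5, Abcc8, Abcc9 and Abcc10) 0 were called in the 11 comparisons with controls, with differences from -0.24 to 0.41. Of 7 measured other Abcb genes 0 were called, including Abcb11, the bile salt export pump. Of all probe sets 0% to 7.63% were called in these comparisons, so both counts are near the background. Among these Abcc and Abcb genes, Abcc1 (5.29), Abcc8 (4.21), Abcc10 (4.72), Abcb9 (4.7) and Tap2 (5.95) had a mean below 6. Among 5 other Abcg genes, Abcg5 and Abcg8, which together export sterols into bile, both fell at phenobarbital 45 mg/kg (-1.42, adjusted p = 0.040, and -1.63, adjusted p = 0.017 in limma), BDE-47 15 mg/kg (-1.79, 0.019, and -2.36, 7.0e-04), BDE-47 50 mg/kg (-2.66, 1.3e-05, and -2.94, 3.8e-06) and DE-71 50 mg/kg (-1.61, 0.0094, and -1.81, 0.0044). Abcg5 and Abcg8 thus fell in 4 of the 5 groups in which Abcc2, Abcc3 and Abcb1a rose. Of Abcb1a, only probe set 1370464_at was called in the DE-71 groups. At DE-71 15 mg/kg neither Abcg5 nor Abcg8 was called, and the lowest difference among the 5 other Abcg genes was -1.13.

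**Figure D3:**
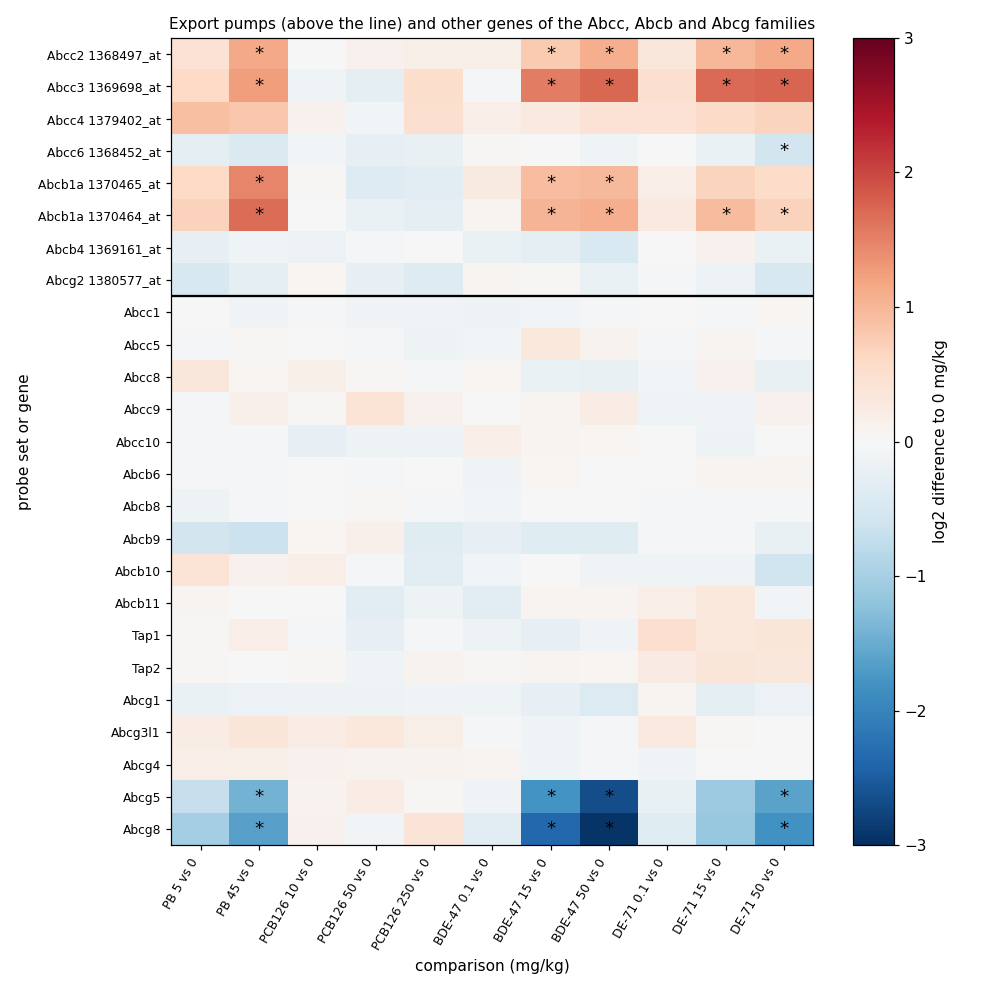
Log2 difference to the 0 mg/kg group of the same agent (colour scale) for the 8 member probe sets (above the line) and 17 other genes of the Abcc, Abcb and Abcg families (below it) in 11 comparisons in mg/kg (horizontal axis); an asterisk marks an adjusted p below 0.05. The red cells with asterisks belong to Abcc2, Abcc3 and Abcb1a, and the darkest blue cells to Abcg5 and Abcg8, down to -2.94.

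Enzymes that make the conjugates these pumps carry were counted as well. Of 24 listed, 16 were measured, and 3, 8, 4, 8, 7 and 12 of them rose at phenobarbital 5 and 45, BDE-47 15 and 50, and DE-71 15 and 50 mg/kg. Of all probe sets, 0.0768%, 1.90%, 0.557%, 2.77%, 0.807% and 7.63% were called in these comparisons, in either direction. One enzyme, Sult1a1, a phenol sulfotransferase, fell at phenobarbital 45 mg/kg (-0.44, adjusted p = 0.028 in limma) and at DE-71 50 mg/kg (-0.47, adjusted p = 0.011). Ugt2b1, a glucuronosyltransferase, rose in all 6 groups, by 0.96 at phenobarbital 5 mg/kg, where 0 members were called, and by 1.38 at phenobarbital 45 mg/kg. The lowest p-values next to it belonged to its relative Ugt2b35 (0.62) and the glutathione transferase Gstm3 at phenobarbital 45 mg/kg, and to Gstt3 (0.99), another glutathione transferase, and Ugt2b35 (0.47) at BDE-47 50 mg/kg. At DE-71 50 mg/kg they belonged to the glutathione transferase Gsta4, which rose by 1.39 (adjusted p = 1.8e-12), to Ugt2b1 (1.22) and to Sult1e1, the estrogen sulfotransferase, which rose by 5.50 (adjusted p = 4.7e-09). Abcg2, an exporter of sulfate conjugates, was not called there. Of the index genes of AhR and NRF2, Cyp1a1 rose by 6.28 at DE-71 50 mg/kg (adjusted p = 2.1e-11 in limma). The quinone reductase Nqo1 (1.55, adjusted p = 0.0049) and the sulfiredoxin Srxn1 (1.38, adjusted p = 0.0073) rose there too. Cyp1a1 also rose at DE-71 15 mg/kg (5.78, adjusted p = 1.0e-09) and at BDE-47 50 mg/kg (2.11, adjusted p = 0.038). Nqo1 was not called at PCB126 250 mg/kg (1.62, adjusted p = 0.052). Gclc, the other index gene of NRF2, differed by 0.1 at DE-71 50 mg/kg and was not called.

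Of the uptake and bile partners, Slco1b2, an organic anion uptake carrier of the basolateral face, rose at DE-71 15 mg/kg (0.58, adjusted p = 0.0039 in limma) and 50 mg/kg (0.37, adjusted p = 0.048). Slc10a1, the bile salt uptake carrier, fell at DE-71 50 mg/kg (-0.37, adjusted p = 0.0059). Among canalicular scaffolds, Rab11a, which serves recycling of membrane proteins, rose at 50 mg/kg of BDE-47 (0.38, adjusted p = 0.0057) and of DE-71 (0.47, adjusted p = 2.0e-04), and Rdx (radixin), which anchors canalicular proteins to actin, fell at DE-71 50 mg/kg (-0.33, adjusted p = 0.023). Nfe2l2, the gene of NRF2, rose at PCB126 250 mg/kg (0.76, adjusted p = 0.025) and DE-71 50 mg/kg (0.52, adjusted p = 0.036), and Keap1, its inhibitor, rose at DE-71 50 mg/kg (0.34, adjusted p = 0.023). The genes of CAR and PXR (Nr1i3 and Nr1i2) were on the same list and were not called in a comparison with controls, where Nr1i3 differed by -0.64 (adjusted p = 0.26) at BDE-47 50 mg/kg. At DE-71 50 mg/kg, 1 of 9 partners and 1 of 7 scaffolds rose, 1 of each fell, and 2 of 10 regulators rose. Of all probe sets 7.63% were called there, and these calls were not tested without replicate 2. Calls elsewhere were 1 of 9 partners at DE-71 15 mg/kg (0.807% of all probe sets) and 1 of 7 scaffolds at BDE-47 50 mg/kg (2.77%). At PCB126 250 mg/kg 1 of 10 regulators was called (0.0336%).

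Markers of other liver cells moved with some of these groups, and their part in the results was not tested. Of 7 measured cholangiocyte markers 1, Epcam, rose in the 5 groups in which Abcc3 rose, by 0.74 (adjusted p = 0.026 in limma) at phenobarbital 45 mg/kg to 1.35 (adjusted p = 9.1e-06) at BDE-47 50 mg/kg, and the mean of the list stayed between 4.40 and 4.99 in all samples. Over all arrays Epcam averaged 8.27, and the rest of this list averaged 5.18 (Krt19), 4.99 (Spp1), 4.68 (Cd24), 3.55 (Krt7), 3.30 (Cftr) and 3.29 (Cldn4). Of 7 measured Kupffer cell and macrophage markers 5 fell at BDE-47 50 mg/kg (-0.80 to -0.60), where the list mean ranged from 7.61 to 8.12 against 8.30 to 8.76 in controls. Of 6 hepatocyte markers 3 fell at DE-71 50 mg/kg, namely the urea cycle enzymes Cps1 (-0.47, adjusted p = 1.4e-04) and Ass1 (-0.79, adjusted p = 0.019), and Serpina1 (-0.22, adjusted p = 0.034). Ass1 also fell at 15 and 50 mg/kg of BDE-47 (-0.89, adjusted p = 0.041, and -0.94, adjusted p = 0.0079). At DE-71 50 mg/kg, where Abcc6 fell, 1 of 8 stellate cell and fibroblast markers fell (Lrat, -0.58, adjusted p = 0.024, list median -0.37), as did 1 of 7 endothelial markers (Kdr, -0.49, adjusted p = 0.015, list median -0.39). Of all probe sets, 2.77% were called at BDE-47 50 mg/kg and 7.63% at DE-71 50 mg/kg. The DE-71 50 mg/kg marker calls include replicate 2, without which Abcc6 lost its call, and whether they hold without it was not tested.

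The genes whose values ran most like a member were ranked over 72 samples, each value less the control mean of its agent, among 7724 genes with a mean of at least 6. This ranking reads group differences and sample spread together, and samples share arrays and controls. For Abcc3 the 5 closest were Aldh1a1 (Pearson r = 0.87), Ces2c (0.85), Cndp2 (0.85), Cyp3a23-3a1 (0.83) and Mmgt1 (0.83). For Abcc2 they were Cyp2c7 (0.85), Tex2 (0.83), Zdhhc2 (0.82), Ces2c (0.82) and App (0.82), and for Abcb1a C8h11orf54 (0.83), Ces2c (0.80), Mmgt1 (0.80), App (0.78) and Meox2 (0.78). Ces2c, a carboxylesterase known to respond to phenobarbital, stood among the 5 closest of all 3 members that rose. It rose itself by 3.81 at phenobarbital 45 mg/kg (adjusted p = 4.1e-19 in limma), by 3.86 at BDE-47 50 mg/kg (adjusted p = 3.7e-18) and by 2.85 at DE-71 50 mg/kg (adjusted p = 1.8e-12). The closest to Abcc6 were other genes, namely Ptprs (0.85), Col5a1 (0.84), Agrn (0.84), Snrnp70 (0.83) and Jak1 (0.82).

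The spread between samples of the same group was described apart from the doses, as deviations from the group mean over the same 72 samples. This measure and the members shown by it were chosen after the values were seen. The 5 genes closest to Abcc4 were Txnrd1, a thioredoxin reductase (r = 0.74, Spearman's rho = 0.64), Me1 (0.71), Srxn1 (0.70), Akr7a3 (0.65) and Zdhhc7 (0.64). With the 2 samples farthest from the Abcc4 median left out, r with Txnrd1 was 0.65. Within single agents it ranged from 0.42 (PCB126) to 0.89 (BDE-47). Replicate 3 of BDE-47 0.1 mg/kg was high in both Abcc4 (6.83) and Abcc3 (9.09), and Abcc3 and Abcc4 deviated together with r = 0.58, from 0.25 in DE-71 to 0.80 in phenobarbital.

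The 5 genes closest to Abcb4 were Cyp4a3, a fatty acid hydroxylase (r = 0.72, rho = 0.62), Ech1 (0.72), Enc1 (0.70), Qsox1 (0.69) and Cpt1a (0.69). For Cyp4a3 the r within agents ran from 0.26 in BDE-47 to 0.83 in DE-71. Abcg2 deviated with Ppm1k (r = 0.76, rho = 0.80), the phosphatase of branched-chain amino acid breakdown, with r from 0.63 to 0.91 within the 4 agents and 0.77 without the 2 farthest samples. The second closest gene to Abcg2, Slc25a12, had r = 0.55. Ppm1k is the neighbour of Abcg2 in the reference, with 0 protein-coding genes between them. The 2 Abcb1a probe sets deviated together with r = 0.63, and the lowest r between 2 members was -0.23, for Abcc2 and Abcg2.

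**Figure D4:**
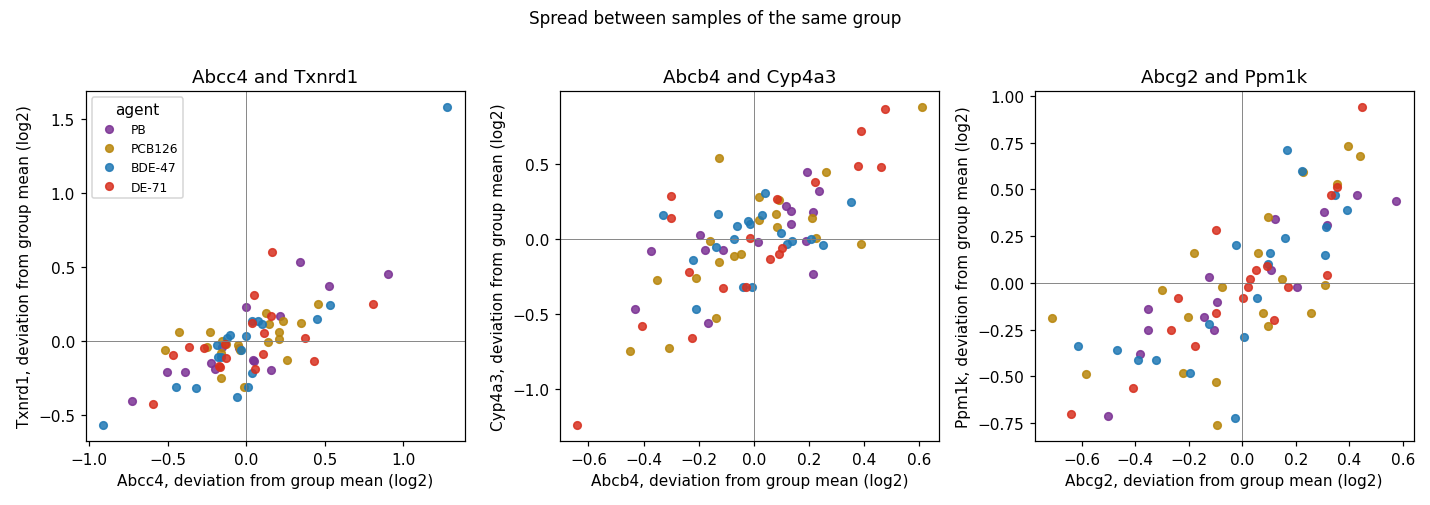
Deviation of each sample from its group mean in log2 units for a member (horizontal axes) and the gene shown with it (vertical axes), over 72 samples coloured by agent. The clouds rise from left to right in all 3 panels, with r of 0.74 for Abcc4 and Txnrd1, 0.72 for Abcb4 and Cyp4a3, and 0.76 for Abcg2 and Ppm1k.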

How the data were processed

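Expression was measured on 74 Affymetrix arrays in 15 groups. The deposited table holds log2 values for each probe set, which the authors made with RMA per the submitters' processing notes (no version given). Gene names come from the 2016 platform annotation: of 31099 probe sets, 57 controls were left out, 20826 name 1 gene, 436 several and 9780 none. Whether the agents were normalized together is not given in the sources used here, so levels were compared within an agent.

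From these values, limma 3.58.1 in R 4.3.3 fitted 15 group means across all genes' 20826 probe sets in 72 samples (57 residual degrees of freedom). Two-sided p-values were adjusted (Benjamini and Hochberg) in each of 18 comparisons. Arrays of a group with a root mean square difference below 0.3 over the 300 most variable genes with mean log2 of at least 7 were averaged. The shared Abcb1a and Abcb1b probe set was fitted with all non-control probe sets.

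The members and lists were chosen with earlier results of these data known. Every member is reported; of each companion list up to 3 called genes were named per comparison, by p, a gene being read by its probe set with the highest mean; index genes where set beside members, and the 5 genes most like a called member, were named too. Sult1a1, the marker genes and the within-group comparisons were chosen after their values were seen. Lists of lymphocyte, neutrophil, erythroid, and pancreas or gut markers had 0 calls at phenobarbital 45 mg/kg and at 15 and 50 mg/kg of BDE-47 and DE-71. Array number limits the precision. Simulated data had the BDE-47 50 mg/kg group sizes, 20826 probe sets, independent normal noise and 50 probe sets changed at each fold. The recovery was 14% for 1.25-fold changes, 70% at 1.5-fold, 90% at 2-fold and 100% at 4-fold, with 5 false calls. These figures hold for that number of changed probe sets, and other numbers were not tried. Alternatives were all 74 arrays, a filter at mean log2 of 6, renewed quantile normalization, 1 probe set per gene, an intensity trend, agent-wise fits, a replicate block and leaving out samples.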

Additional observations from a re-analysis of the deposited data

Results flagged for a closer look

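Within groups of 4 or 5 samples, 7 of 120 sets of values had a sample farther from the others than Dixon's 95% limit, and chance flags about 1 in 20. For Abcc4 these were the high values of BDE-47 50 mg/kg replicate 4 (6.22, others 5.59 to 5.77) and of the averaged DE-71 15 mg/kg replicates 1 and 2 (6.27, others 5.10 to 5.29). For Abcb1a 1370465_at it was PCB126 50 mg/kg replicate 5, low at 6.62 (others 7.64 to 7.99). For Abcb1a 1370464_at they were PCB126 0 mg/kg replicate 3, high at 7.55, DE-71 15 mg/kg replicate 4, low at 7.17 (others 7.85 to 7.89), and DE-71 50 mg/kg replicate 4, high at 7.89 (others 7.22 to 7.29), the last being near-identical to an array of the 15 mg/kg group. For Abcg2 it was PCB126 250 mg/kg replicate 5, low at 7.32 (others 8.11 to 8.34).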

How the results depend on the processing

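No log2 difference of a called member changed its direction under the alternatives run. Without the arrays near-identical across doses, 2 members were called at BDE-47 15 mg/kg. With only the agent's own arrays in the fit, 1 was called at DE-71 15 mg/kg and 2 at DE-71 50 mg/kg. With 1 probe set per gene, 1 was called in the step from phenobarbital 5 to 45 mg/kg. Each of these alternatives holds fewer samples or probe sets, and the part of this in the changes was not tested. Both calls in the phenobarbital step were probe sets of Abcb1a, and 1 probe set per gene keeps only 1 of them. Leaving out 1 sample at a time, the members called ranged from 4 to 5 at phenobarbital 45 mg/kg, 2 to 4 at BDE-47 15 mg/kg, 4 to 4 at BDE-47 50 mg/kg, 2 to 4 at DE-71 15 mg/kg, 2 to 4 at DE-71 50 mg/kg and 1 to 2 in the phenobarbital step, and were 0 in the other comparisons. For single probe sets, the alternatives other than left-out samples ended 7 calls and made 5. Agent-wise fits ended the calls of Abcc2 (adjusted p = 0.066 in limma) and Abcb1a 1370464_at (0.19) at DE-71 15 mg/kg and of Abcc6 (0.20) and Abcb1a 1370464_at (0.18) at DE-71 50 mg/kg, and made calls of Abcc6 at phenobarbital 45 mg/kg (-0.44, adjusted p = 0.012 in limma) and of Abcc2 in the step from phenobarbital 5 to 45 mg/kg (0.70, adjusted p = 0.0031), which the filter at mean log2 of 6 also made a call (adjusted p = 0.048). Leaving out the near-identical arrays made Abcc4 a call at DE-71 50 mg/kg (0.87, adjusted p = 0.035) and ended those of Abcc2 and Abcb1a 1370465_at at BDE-47 15 mg/kg and of Abcb1a 1370464_at at DE-71 50 mg/kg. With the replicate number as a block, Abcb1a 1370465_at became a call at DE-71 15 mg/kg (0.69, adjusted p = 0.028 in limma) and no other member's call changed. That fit held all 74 arrays as separate samples, so near-identical arrays of a group counted separately in it. Whether the replicate numbers stand for pairs was not settled. Of 15 pairs of groups, 0 had every same-numbered pair of samples correlated above 0.1, a strict rule that paired samples could also fail. The mean correlation of same-numbered samples ran from -0.17 (BDE-47 0.1 mg/kg with its controls) to 0.22 (PCB126 250 mg/kg with its controls). Samples of other numbers averaged 0.04 and -0.05 in these 2 comparisons. Over the same alternatives the count of all probe sets called went from 384 to 717 at phenobarbital 45 mg/kg (395 as reported), 63 to 353 at BDE-47 15 mg/kg (116), 503 to 1034 at BDE-47 50 mg/kg (577), 38 to 376 at DE-71 15 mg/kg (168) and 300 to 2086 at DE-71 50 mg/kg (1589).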

Other observations

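Some samples were far from their group in several members at once. PCB126 50 mg/kg replicate 5 was low in Abcc2 (7.83, 0.91 below its group mean), Abcc6 (8.68) and Abcb1a 1370465_at (6.62). PCB126 250 mg/kg replicate 5 was low in Abcb1a 1370465_at (6.78), Abcc3 (7.83) and Abcg2 (7.32). Within groups, the gene closest to Abcc3 was Entpd5 (r = 0.76 over 72 samples, 0.51 to 0.85 within agents) and the gene closest to Abcc6 was Agrn (r = 0.84, 0.40 to 0.92 within agents).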
